A study of Homo sapiens with 2 samples.

Results

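Splicing factor and hnRNP genes were read on the 2 arrays of the study by the gene names of the transcript probes. Names beginning with SFRS, SF3A, SF3B, U2AF, PRPF, HNRP or HNRNP were taken. So were SNRP names with a letter from A to G, SNRP70, PTBP1, PTBP2 and ELAVL1 to ELAVL4. The rule used names only and no measured value. It gave 153 probes for 83 genes, of 41000 probes under 30982 names on the array. Of these genes, 38 had 1 probe and 45 had several, up to 9 for HNRPA3. RNA of siRNA-untreated Y79 cells was on the first array, and RNA of Y79 cells taken 48 h after Ep-CAM siRNA on the second. Ep-CAM is a cell surface adhesion molecule, and Y79 is a suspension line derived from a human retinoblastoma. The paper states that both cultures had also been exposed to 5′-azacytidine, a DNA demethylating agent, and the sample labels give only the siRNA. With 1 array per condition, no test between the conditions was possible, and each ratio below compares these 2 arrays.

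Splicing removes introns from the primary transcript and is carried out by the spliceosome. Its small nuclear ribonucleoproteins (snRNPs) hold short RNAs inside a ring of Sm proteins, and SNRP genes encode these and other snRNP proteins. U2AF and the SF3A and SF3B proteins recognize the end of the intron and the branch point, and the PRPF proteins act in the tri-snRNP and in later steps. SR proteins mostly favor the use of an exon, and hnRNP proteins coat the transcript and often oppose them. The ELAVL proteins bind AU-rich stretches and stabilize mRNA, and ELAVL2, ELAVL3 and ELAVL4 are known as neuronal members.

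The unit throughout is the processed signal, the brightness of a spot in arbitrary units after background subtraction and trend correction by the scanner software. The log2 ratio is siRNA-treated over untreated after each array was divided by the median of its transcript spots, which was 48.8 for untreated and 50.0 for siRNA-treated cells. Log2 ratios of 1 or more count as higher and those of -1 or less as lower, and such probes are called below. Every member was printed once per array, so no member has a spread of its own. For 191 probes printed 10 times and measured at 5 or more spots, the log2 ratio had a median SD of 0.14 over the spots of a probe, which is a technical spread only. Cells of the line were checked by markers. Of 8 markers of the photoreceptor lineage on the array, 4 were well above background on both, among them CRX (86.8 and 68.7, untreated and siRNA-treated) and OTX2 (70.4 and 52.0), while NRL, NEUROD1, RCV1 and PDE6H were not well above background on either array. The single probe for the siRNA target, listed as TACSTD1, was not well above background with either RNA, so the arrays do not check the knockdown. The reference gene GAPDH had a log2 ratio of -0.03. Of 12 marker genes of epithelium, fibroblasts and blood, 11 were well above background on both arrays, with signals from 19.9 to 815 on the untreated array. Among them HBB, a blood gene, was at 335 and 1231, and the part of such signals in the results was not tested.

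The sequences of the probes that passed the threshold are shown first, since each call below rests on 1 oligonucleotide. Probes are 60 bases long, and the first 30 bases of each are printed 5′ to 3′ with the hg17 position of the whole probe. HNRPA0, HNRPU, SFRS10 and ELAVL1 probes lie in 1 uninterrupted block. HNRPD, U2AF1 and PRPF4B probes cover a longer genomic interval and thus bridge at least 1 intron.
HNRPA0 (chr5:137116411-137116470, minus strand): tggaccttggtcgtttttatactagcaaaa
HNRPD (chr4:83635197-83635673, minus strand): agaaataccacaatgttggtcttagtaaat
HNRPU (chr1:241343365-241343424, minus strand): cagtcgggagtcattgtcacaatataatag
U2AF1 (chr21:43387911-43388619, minus strand): aagtttcgccgtgaggaagatgcggaaaag
PRPF4B (chr6:4001649-4002308, plus strand): ttatcgtgctcctgaaatcattataggtaa
SFRS10 (chr3:187117979-187118038, minus strand): gcatttgtgtagtttggtgctttgttccaa
ELAVL1 (chr19:7934279-7934338, minus strand): agataattaagagtgaaggagttgaaactt

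Most members were lower on the siRNA-treated array, by modest amounts. Of the 153 probes, 114 were well above background and unsaturated on both arrays and had a measured ratio. A further 7 were well above background on the untreated array only, which gives bounds of up to at least 1.63-fold lower. The bound of PRPF39 (18.2 and 19.2) was 1.00-fold, which shows no decrease. On neither array were 31 probes well above background, and 1 probe of HNRPA3 was saturated on both. Together 76 genes had a measured ratio, HNRPR and PRPF39 had a bound only, and HNRPAB, PRPF38B, PTBP1, SNRPA1 and SNRPG had neither.

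Over the 76 genes, each taken at its brightest measured probe, the median log2 ratio was -0.38, against -0.02 for 22095 genes measured in the same way. Of the 114 member probes, 91 (79.8%) were below 0, against 55.2% of all 26976 measured probes. A log2 ratio of -0.5 or less was found for 35 member probes, or 30.7%, where the background over all measured probes is 6.77%. A log2 ratio of 0.5 or more was found for 3 member probes, where the background is 3.91%. No member was called higher, where 1.27% of all probes with a ratio or a bound were. Called lower were 7 of 121 members, or 5.79%, where the background is 0.927%. The 7 probes belong to HNRPA0, PRPF4B, HNRPD, HNRPU, ELAVL1, SFRS10 and U2AF1. Only HNRPA0 stayed past the threshold under each of the 14 alternative settings that give a value for it, as described under the processing.

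**Figure D1:**
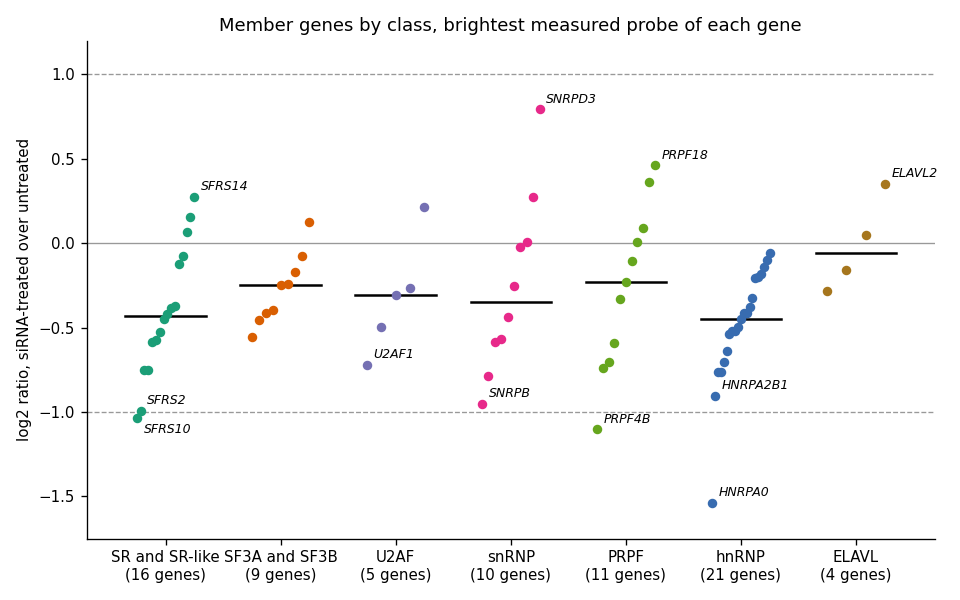
The log2 ratio (siRNA-treated over untreated) of each member gene at its brightest measured probe is plotted by class, 1 point per gene, with a bar at the class median and dashed lines at 1 and -1. The points of the hnRNP class all lie below 0, down to HNRPA0 at -1.54, and no gene of any class reaches 1.

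**Figure D2:**
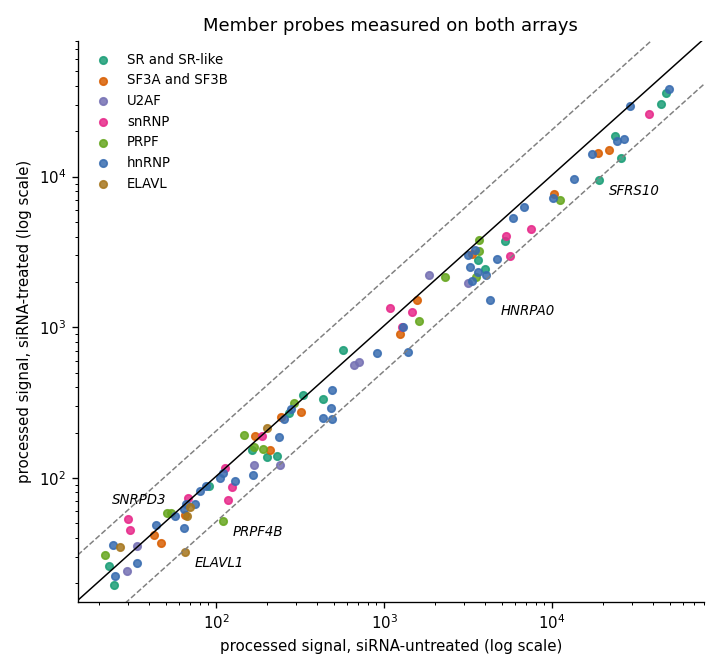
The processed signal of the 114 member probes measured on both arrays is plotted on log axes, untreated across and siRNA-treated up, colored by class. The solid line marks equal signal after scaling and the dashed lines a doubling and a halving. Of the 114 points, 91 lie below the solid line, and SNRPD3 is the farthest above it.

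The SR and SR-like class held 16 genes and 25 probes. Of these probes 18 were measured, 2 gave a bound and 5 were dim on both arrays. The class had a median of -0.43 over its genes, 13 of 16 genes were below 0, and 7 were at -0.5 or less. SFRS10, today TRA2B, a sequence-specific splicing activator, gave 19102 without and 9558 with siRNA (log2 ratio -1.03, called). SFRS2, today SRSF2, which binds exonic enhancers, had 25771 and 13249 and stood just outside the threshold at -0.995. Both were single-probe genes with roughly halved signals on the siRNA-treated array.

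By the mean log2 signal of both arrays, which also depends on the probe sequence, the highest genes of the class were SFRS7 (47615 and 35717, log2 ratio -0.45), SFRS5 (44356 and 30290, -0.59) and SFRS1 (23598 and 18553, -0.38). SFRS1, the founding SR protein, had 3602 and 2798 at its second probe, with nearly the same log2 ratio of -0.40. SFRS3, whose protein also takes part in mRNA export, had 3996 and 2429 and a log2 ratio of -0.75. SFRS11 (230 and 140, -0.75), SFRS6 (201 and 138, -0.57) and SFRS9 (5227 and 3711, -0.53) were also below -0.5. SFRS4 was nearest to 0 among these genes, with 163 and 153 and a log2 ratio of -0.12. The 10 genes that now carry an SRSF or TRA2 name were all below 0, with a median of -0.58 and a range from -1.03 to -0.12. The 6 genes of other names, whose proteins contain SR-rich stretches but are mostly not classical SR proteins, had a median of -0.00 with 3 below 0. They ran from SFRS15 at -0.42 to SFRS14 (568 and 704) at 0.27. This split by present-day name was made after the values were seen, and it carries no test.

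Proteins of the SF3A and SF3B class are subunits of the U2 snRNP at the branch point. The class had 9 genes and 16 probes on the array, of which 13 were measured and 3 were dim on both arrays. Its median over genes was -0.25, with 8 of 9 genes below 0 and none called. SF3A3 had the lowest value, with 21686 and 15105 and a log2 ratio of -0.56, which became -1.14 after the median of the neighboring spots was subtracted. SF3B1, the branch point subunit that is mutated in several cancers, had 18708 and 14414 at one probe (-0.41) and 1244 and 906 at the other (-0.49). SF3B14, today SF3B6, had 10299 and 7703 and a log2 ratio of -0.45. The highest gene was SF3B5, with 169 and 190 and a log2 ratio of 0.13. The values of the other genes, SF3A1, SF3A2, SF3B2, SF3B3 and SF3B4, lay between those of SF3A3 and SF3B5.

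All 8 probes of the 5 U2AF genes were measured. U2AF1, the small subunit that reads the last bases of the intron, was lower at each of 3 probes. They had 3149 and 1959 (log2 ratio -0.72), 241 and 122 (-1.02, called) and 29.7 and 24.1 (-0.33). U2AF2, the large subunit that binds the polypyrimidine tract, had 168 and 122 and a log2 ratio of -0.50. U2AF1L1 had 709 and 587 (-0.31), and U2AF1L4 had 663 and 566 at its brighter probe (-0.26) and 33.6 and 35.2 at the other (0.03). U2AF1L2, today ZRSR2, which serves the minor spliceosome, was the only gene of the class above 0 at its brightest probe, with 1857 and 2207 and a log2 ratio of 0.21.

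The snRNP class held 12 genes and 19 probes. Of these probes 14 were measured and 5 were dim on both arrays. The class had a median of -0.35, 7 of its 10 measured genes were below 0, and none was called. The Sm ring genes differed among themselves. SNRPB had 5628 and 2979 and a log2 ratio of -0.95. SNRPD2 had 7508 and 4460 (-0.79), and SNRPD1 had 37971 and 25876 (-0.59) at one probe and 118 and 71.2 (-0.77) at the other. SNRPE had 125 and 86.4 (-0.57) and SNRPF 5350 and 4043 (-0.44). SNRPD3 had the highest log2 ratio of all members, 0.79, but at low signals of 29.9 and 53.1. The SNRPG probe was dim on both arrays. Of the genes specific to the U1 snRNP, SNRP70 was higher at both of its probes (1082 and 1337, log2 ratio 0.27, and 67.6 and 73.0, 0.07), SNRPC was level (188 and 189, -0.02), and SNRPA was lower at both measured probes (-0.39 and -0.25). SNRPB2, a U2 snRNP gene, had log2 ratios of 0.01 and 0.52, the second at signals of 30.5 and 44.8.

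Among the PRPF genes, 13 on the array with 20 probes, 14 probes were measured, 1 gave a bound and 5 were dim on both arrays. The median was -0.23 and 7 of 11 genes were below 0. PRPF4B, a kinase of splicing factors now named PRP4K, had 109 and 52.0 and a log2 ratio of -1.10, and its 2 other probes were dim on both arrays. PRPF19, a ubiquitin ligase of the active spliceosome, had 3501 and 2144 and a log2 ratio of -0.74. PRPF18, a factor of the second splicing step, was the highest gene of the class, with 21.8 and 30.8 and a log2 ratio of 0.46.

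The tri-snRNP genes that are known for inherited retinitis pigmentosa had mixed values. PRPF3 had 190 and 154 and a log2 ratio of -0.33. PRPF8, the central scaffold of the spliceosome, had 3659 and 3198 (-0.23) and 2294 and 2146 (-0.13). PRPF6 had 3695 and 3800, a log2 ratio of 0.01. PRPF31 differed between its probes, with 1611 and 1094 (-0.59) at one and 51.1 and 58.6 (0.16) at the other.

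The hnRNP class, with PTBP1 and PTBP2, was the largest, with 24 genes and 56 probes. Of its probes, 42 were measured, 3 gave a bound, 10 were dim on both arrays and 1 was saturated on both. All 21 genes with a measured probe were below 0 at their brightest one, with a median of -0.45, and 9 were at -0.5 or less. HNRPA0, which binds AU-rich mRNA, gave the lowest value of all members, with 4286 and 1512 and a log2 ratio of -1.54. HNRPA2B1 had 4047 and 2218 and a log2 ratio of -0.90. HNRPCL1 (3346 and 2023) and HNRPH1 (4685 and 2833) both had -0.76, and HNRPLL had 166 and 105, a log2 ratio of -0.70.

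The genes with the highest signals were nearer to 0 than these. HNRPA3 had 49647 and 38139 at its brightest measured probe, a log2 ratio of -0.42. HNRPM had 26833 and 17681 (-0.64), and HNRPU, a nuclear scaffold protein, had 24404 and 17196 (-0.54). HNRPD, also known as AUF1, a factor of mRNA decay, had 13409 and 9580 (-0.52), and HNRPK had 17165 and 14033 (-0.33). HNRPA1, which antagonizes SR proteins at many exons, was among the least shifted, with log2 ratios of -0.14 (6785 and 6313), -0.13 (3463 and 3253) and -0.40 (491 and 381). PTBP2, the neuronal polypyrimidine tract protein, had 5881 and 5300 and a log2 ratio of -0.18. PTBP1, its counterpart in most other cells, had signals of 3.46 and 3.97 at its single probe, which was dim on both arrays. HNRPUL1 had the highest value at a brightest probe, -0.06 with 252 and 248. At its other probes it had -0.00 (80.4 and 82.3) and 0.51 (24.4 and 35.6), the highest log2 ratio of any hnRNP probe.

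Of 9 probes of the ELAVL genes, 5 were measured, 1 gave a bound and 3 were dim on both arrays, and the median over the 4 genes was -0.06. ELAVL1, the widely expressed HuR, had 65.1 and 32.4 at one probe, a called log2 ratio of -1.04, and 69.5 and 63.8 at another, a log2 ratio of -0.16. ELAVL2 had 26.7 and 34.8 (0.35), ELAVL3 had 201 and 213 (0.05) and ELAVL4 had 66.8 and 56.1 (-0.29). A second ELAVL3 probe, with 25.4 and 17.3, was dim on the siRNA-treated array and at least 1.49-fold lower.

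Probes of the same gene gave a check that the single spots could not. Of 27 genes with several measured probes, 17 were below 0 at every one of them, 7 had values on both sides of 0 and 3 were above 0 at every one. Among 3962 genes of the whole array with several measured probes, 1226 were below 0 throughout, 1992 were on both sides and 744 were above. The highest and lowest probe of a member gene were a median of 0.43 apart, against 0.26 over all such genes. HNRPA0 was the only 1 of the 27 member genes with probes at least 1 apart, where 199 of the 3962 genes were. The number of probes per gene was not matched in these comparisons. The second HNRPA0 probe, at 64.6 and 46.4, had a log2 ratio of -0.51. In HNRPU the called probe (492 and 245, -1.04) stood beside one at -0.54 and one at -0.10. In HNRPD the called probe (1388 and 688, -1.05) stood beside one at -0.52. HNRPA3 ran from -0.83 to 0.00 over 6 probes, with -0.42 at one (49647 and 38139) and -0.02 at another (29152 and 29541). HNRPC had -0.52, -0.67 and 0.12, the last at signals of 43.8 and 48.6. Of the genes with a called probe and a second measured one, none had both past the threshold.

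**Figure D3:**
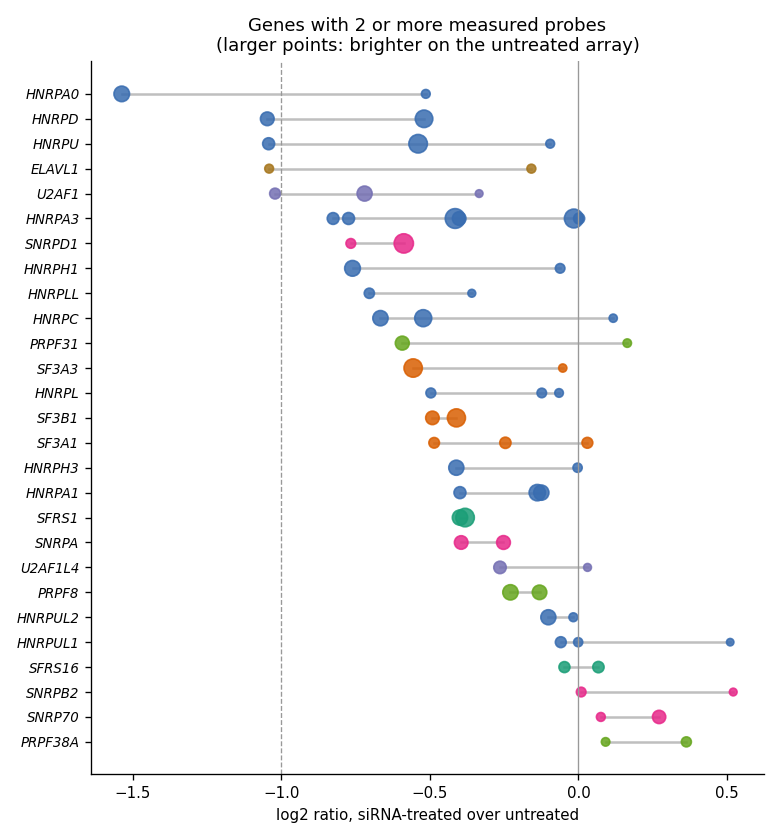
For each of the 27 member genes with several measured probes, every probe is a point at its log2 ratio (siRNA-treated over untreated), a grey line joins the probes of a gene, larger points are brighter on the untreated array, and the dashed line marks -1. For HNRPA0, HNRPD, HNRPU, ELAVL1 and U2AF1, 1 probe of the gene lies below -1 and the other or others above it.

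Some probes overlap in sequence, and these show how far 2 oligonucleotides that share part of their bases differ. Stretches of at least 20 identical bases were shared by 3 pairs of member probes and by 7 pairs of a member probe with a probe under another name. The runs below are shown because they tie such probes together, up to 30 bases each and in capitals since every base is shared by both probes. SNRPA marks a pair that shares 40 bases, and the HNRPA3 run ends one probe and begins the other. HNRPK, SNRPD2 and HNRPA1 mark a member and a probe listed on another chromosome.
SNRPA, both probes on chromosome 19: ACCAACGAGCTCATGCTGTCCATGCTTTTC
HNRPA3, both probes on chromosome 2: CAGTTGAGAAAACTGTTTAT
HNRPK on chromosome 9 and an unnamed probe on chromosome 2: TGATCTTGGTGGACCTATTATTACTACACA
SNRPD2 on chromosome 19 and a probe named by a transcript identifier on chromosome 10: AAGAAGTCCAAGCCAGTCAACAAAGAC
HNRPA1 on chromosome 12 and RP11-78J21.1 on chromosome 13: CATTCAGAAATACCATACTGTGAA

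The SNRPA probes had 1279 and 997 (log2 ratio -0.39) and 1465 and 1260 (-0.25), 0.14 apart, as large as the technical spread. The HNRPA3 probes had 1299 and 1008 (-0.40) and 434 and 251 (-0.83). In the third member pair, 2 HNRPL probes that share 34 bases had 57.0 and 55.8 (-0.07) and 106 and 99.2 (-0.12). The probes on other chromosomes were also below 0. The unnamed partner of HNRPK had a log2 ratio of -0.63 beside the -0.33 of HNRPK, the partner of SNRPD2 had -0.67 beside -0.79, and RP11-78J21.1 had -0.53 beside the -0.13 of HNRPA1. Shared bases did not always go with shared signal. The SNRPC probe that shares 40 bases with a probe at 48.5 and 28.7 was dim on both arrays (4.05 and 5.17), and the SNRPG probe that shares 28 bases with one at 148 and 118 was dim as well (8.79 and 12.4). Whether these probes bind transcripts of both loci was not tested.

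Bright probes were lower on the siRNA-treated array in general, and the members are bright. When all measured probes were divided into 20 equal bins of mean signal, the brightest bin of 1349 probes had a median log2 ratio of -0.28, the next one -0.09, and the one below it -0.04. Of the 114 member probes, 40 were in the brightest bin, with a median of -0.52, and 38 of these 40 were below 0. How many of all probes in that bin were below 0 was not counted. The 74 member probes below that bin had a median of -0.18, against -0.02 for all 25627 probes there, the members included. In the brightest bin 25.7% of all probes were at -0.5 or less, and 21 of the 40 members were. After the median of the bin was subtracted from each probe, the median over member genes was -0.23. How much of the members' lower level goes with brightness was not tested further.

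**Figure D4:**
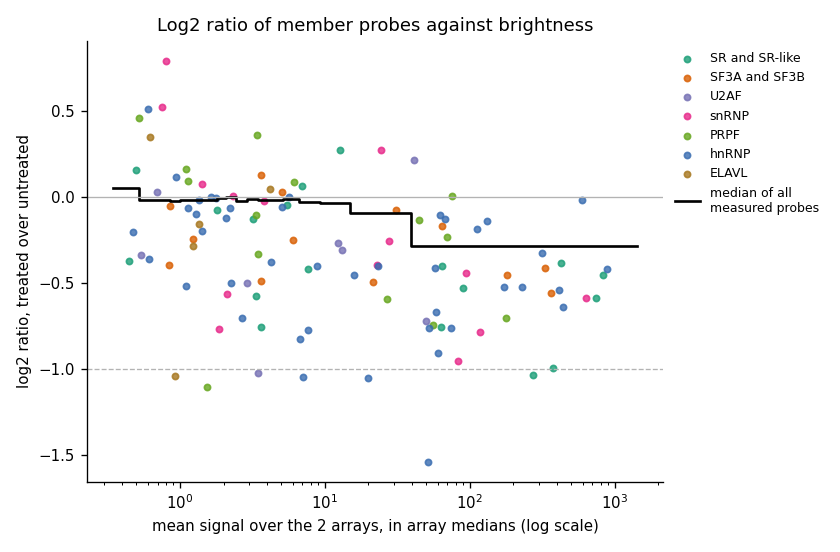
The log2 ratio of each measured member probe is plotted against its mean signal over both arrays in units of the array median, on a log axis, with a black step line for the median of all measured probes in 20 equal bins. The line falls to -0.28 in the brightest bin, where the 40 members have a median of -0.52.

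Position on the array was also compared. The lower right part of the array (rows 355 to 532, columns 43 to 85) had the wider log2 ratios, with an SD of 0.51 over all measured probes against 0.29 elsewhere. Of the measured members 15 lie there, with a median of -0.41 against -0.33 for the 99 elsewhere. Of the called members, SFRS10 alone lies in that part, and 6 lie outside it. Measured spots within 5 rows and 5 columns of the called members had median log2 ratios from -0.18 to 0.02, over 36 to 86 spots each. Over all measured members, 87 of 114 were below the median of their own neighbors, a count not made for all probes. After that median was subtracted, the median log2 ratio was -0.27 over member probes and 0.0004 over all measured probes. SF3A3, at -0.56, stood among spots with a median of 0.59, and PRPF31, at -0.59, among spots with a median of 0.36. For SFRS2 the fitted trend, by which the software divides the signal, was 0.636 for untreated and 0.774 for siRNA-treated cells, a share of -0.28 in its log2 ratio.

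**Figure D5:**
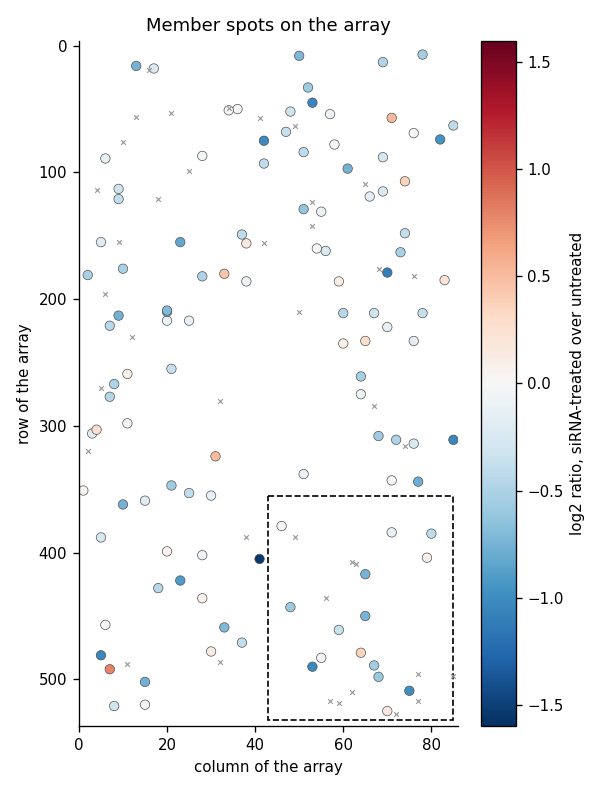
Each member spot is drawn at its row and column on the array, colored by the log2 ratio (siRNA-treated over untreated), with grey crosses for members without a measured ratio and a dashed box round the lower right part. Blue spots, the lower ones, are found over the whole array, and 99 of the 114 measured members lie outside the box.

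Probes that bridge an intron were more frequent among the members than on the whole array. Of the measured members, 30 (26.3%) covered more than 60 bases of hg17, against 14.8% of all measured probes with a position. These 30 had a median log2 ratio of -0.43 and the 78 members in 1 block of 60 bases -0.25. The medians over all probes were -0.06 and -0.02. Probes with a listed span below 60 bases are in neither group, and the groups were not matched for brightness.

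Other gene groups of RNA and protein synthesis give the scale for these values. Over their 114 measured probes the members had a median log2 ratio of -0.33. Of these probes 30.7% were at -0.5 or less, and 7 of 121 (5.79%) were called lower. They are described side by side, and no difference between groups was tested. Of 82 further RNA processing genes on a fixed list (such as the LSM, DDX and GEMIN genes), 79 were on the array. That list also holds SNRPN, SYNCRIP, RALY and the PCBP genes, which the name rule leaves out. Their 99 measured probes had a median log2 ratio of -0.21, with 20 (20.2%) at -0.5 or less. Of 106 with a ratio or a bound, 1 (0.943%) was called lower (GEMIN6, 73.9 and 35.9, -1.08) and 0 called higher. Translation initiation factor genes (names beginning with EIF) had a median of -0.26 over 64 probes. Of these, 20 (31.25%) were at -0.5 or less, and 4 of 67 (5.97%) were called lower. Over genes, each at its brightest measured probe, their median was -0.36, beside -0.38 for the members. Proteasome subunit genes had -0.22 over 54 probes, with 13 (24.1%) at -0.5 or less and none called. Cytosolic ribosomal protein genes had -0.18 over 158 probes, with only 9 (5.70%) at -0.5 or less. All of these probe medians lie below the -0.03 of all measured probes, so values below 0 were not particular to splicing factors. Neither were the shares at -0.5 or less and called lower, which were as large in translation initiation factor genes.

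The promoters of the members were compared with all promoters by a count of short motifs, on both strands, in the 250 bases before and 50 after the start site (RefSeq, GRCh38.p14). Promoters of 70 member genes were matched by present-day name, out of 27305 in all. CCGGAAG, the core bound by ETS family factors, was in 35.7% of member promoters and 10.7% of all. GGGCGG, a GC box, was in 62.9% against 44.6%, CACGTG, the E-box, in 12.9% against 7.43%, and CCAAT in 41.4% against 35.7%. TATAAA was in 11.4% and 11.95%. The windows below hold the CCGGAAG match in capitals (CTTCCGG on the other strand) for genes with a probe at or near the threshold.
PRPF4B (chr6:4021214-4021243, plus strand): ccaccatgctcCCGGAAGctgcgacactac
HNRPD (chr4:82374156-82374185, minus strand): agctcacgacaCTTCCGGttccttttaaag
SNRPB (chr20:2470812-2470841, minus strand): agtgagctggaCCGGAAGtaggtttctacc

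The matched promoters of HNRPA0, HNRPA2B1, HNRPU, SFRS10 and U2AF1 held no CCGGAAG in this window. For ELAVL1 and SFRS2 no promoter was analysed here. A motif match describes the sequence and says nothing of which factor was bound in these cells. Promoters of the translation initiation factor, proteasome and ribosomal protein genes were not counted. Whether the motif shares are particular to splicing factors was thus not tested.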

How the data were processed

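RNA of siRNA-untreated and siRNA-treated Y79 cells was hybridized to 1 one-color Agilent array each, grouped by the labels. Per the file headers, the authors ran Feature Extraction 9.5.3.1, which gave raw spot and background intensity, flags, the processed intensity and the fitted trend surface, a ratio to the average of the array. The deposited value table of the series equaled the raw median intensity and served as an alternative. The members and lists were chosen with earlier results of these data known.

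Control and outlier spots were left out, the processed intensity was divided by the 50th percentile of the array, floored at 0.01 and put on the log2 scale (Python 3.11.15, pandas 2.3.3; normexp from limma 3.58.1). A probe dim or saturated on 1 array gave a bound, and on both no ratio. Calls carry no p-value. Named were members past the threshold, genes with probes at least 1 apart, the 3 genes of highest signal and the highest and lowest ratio of each class, all ELAVL, PTBP and U2AF genes, and PRPF3, PRPF6, PRPF8 and PRPF31. Others are named to complete a class, after their values were seen. The values of 1 gene that this rule takes are not reported here. The alternatives were other scalings, background corrections, filters, thresholds and position corrections. The code was tested on simulated data. Present-day names were found for 80 of 83 genes. Precision is limited by having 1 array per condition.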

Additional observations from a re-analysis of the deposited data

How the results depend on the processing

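No paired analysis was possible because each condition has 1 array. The median over member genes stayed below 0 in all 14 alternative settings that give it, and class medians kept their sign wherever they moved by more than the technical SD of 0.14. No member was called higher except 1 (SNRPD3) at ratios above 1.5 and below 0.55. Quantile normalization gave a gene median of -0.19, 4 probes called lower (219 over all probes, against 272 in the report), and class medians of -0.26 for SR, -0.10 for snRNP, -0.086 for PRPF and -0.19 for hnRNP genes, with PRPF8 at 0.079 and PTBP2 at 0.16. Normexp followed by the 50th percentile moved the median of all measured probes to -0.20 and that of member genes to -0.77, with 35 probes called lower (1056 over all probes, and 45 higher), 7 genes with probes at least 1 apart, and class medians of -0.79 (SR), -0.66 (SF3A and SF3B), -0.69 (U2AF), -0.78 (snRNP), -0.62 (PRPF) and -1.02 (hnRNP). ELAVL3 was then at -0.33, PRPF6 at -0.62, SF3B5 at -0.22, SFRS14 at -0.38 and U2AF1L2 at -0.52. Once the only spot dimmer than its surroundings had been dropped from the fit, normexp gave a gene median of -0.34 and 1 probe called lower. The value table of the series also gave 1 called lower, HNRPA0 in both cases, where calls over all probes were 76 and 80. Subtraction of the local median gave 4 members called lower (225 over all probes). Of these 4, 3 are called in the report and SF3A3 (-1.14) is not, and 2 genes had probes at least 1 apart. Removal of the trend correction gave 4 called lower (229 over all probes) and 0 genes with probes at least 1 apart. No filter on dim probes gave 5 such genes. The mean over all measured probes put HNRPUL1 at 0.15. Subtraction of the median of the brightness bin gave a gene median of -0.23 and class medians of -0.28 (SR), -0.16 (snRNP) and -0.26 (hnRNP), with PRPF8 at 0.053 and PTBP2 at 0.10. Without the lower right part of the array 6 member probes were called lower (156 over all probes). SFRS10 stayed past the threshold in 7 of 13 settings with a value for its called probe, U2AF1 in 8 of 14, HNRPU and HNRPD in 9, ELAVL1 in 10 and PRPF4B in 11. ELAVL1 reached only -0.26 under one of them. The cause was not tested in any of these cases. The settings for the trend, the brightness bins and the single spot were chosen after seeing the data. For 31 members with signals near background, a change cannot be seen.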
